A study of Mus musculus with 6 samples.

Results

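The genes described here are the band 4.1 and ERM families, 10 genes of the 55401 in the deposited table, taken by gene name: the 7 band 4.1 genes Epb41, Epb41l1, Epb41l2, Epb41l3, Epb41l4a, Epb41l4b and Epb41l5, and the 3 ERM genes Ezr (ezrin), Msn (moesin) and Rdx (radixin). Epb41l4b was chosen by its measured values in these libraries, which were evenly high in one group, so its levels are given as a description with no test. The other 9 genes entered as its relatives. RNA was sequenced from bone marrow cells of 6 secondary recipients of a Hoxa9 and Meis1 leukaemia, a mouse model of acute myeloid leukaemia. The Lym group holds lymphoid leukaemia cells of mice 62, 63 and 87, which had received lymphoid leukaemic stem cells. The Lin- group holds lineage-negative, Kit-positive progenitor cells of mice 56, 57 and 91, which had received Lin- leukaemic stem cells. Both groups share the Hoxa9 and Meis1 leukaemia, and the labels used here give no donor leukaemia, age or strain for any mouse. No sequencing batch within the 6 libraries is given either, and each mouse is treated as an independent sample.

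Proteins of both families carry a FERM domain, a fold that holds a protein at the inner face of the plasma membrane. Among band 4.1 proteins, that of Epb41 ties the spectrin and actin network to membrane proteins, which was first worked out in the red blood cell. This role does not extend to every protein of the family. ERM proteins open upon binding a membrane phospholipid and being phosphorylated, and then link cortical actin to receptors such as CD44. In lymphocytes and other leukocytes they shape microvilli and the rear of the moving cell, and moesin is known as the main ERM protein of leukocytes.

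Each mouse gave 1 library, and reads assigned to genes came to 18537700 to 22634286 per library. Values below are normalized counts, read counts that the authors divided by a size factor for each library, and 3 reads, taken as the floor of detection, equal 2.64 to 3.36 normalized counts, for counting error only. On the first principal component of the 500 most variable genes, which held 61.8% of the variance, the Lym library of mouse 87 (26.4) lay among those of Lin- mice 56, 57 and 91 (3.86 to 36.4), away from those of Lym mice 62 and 63 (-52.5 and -32.9). B-lineage markers summed to 88.4 to 766 in Lym and to 56.3 to 415 in Lin-, and Cd79b held most of each Lin- sum, at 255, 28.0 and 244 in Lym and 414, 45.8 and 284 in Lin-. Markers of early lymphoid cells were found in Lym, with Dntt at 216, 29.1 and 4.76 in Lym and 0 in each Lin- library, Rag1 at 104, 2.24 and 1.91 in Lym and 0 in each Lin- library, and Ebf1 at 59.4, 6.71 and 14.3 in Lym and 0, 1.76 and 0 in Lin-. In all 3 of these mouse 62 was the highest. The markers Pax5 and Cd79a were near 0 in both groups, at most 0.953 and 4.48 in the Lym libraries and at most 0.882 and 4.13 in the Lin- libraries. T cell markers summed to 2.24 to 41.5 in Lym and to 0 to 2.64 in Lin-. Markers of granulocytes and monocytes summed to 71086 to 76624 in Lym and to 89286 to 154952 in Lin-. Mpo held most of each sum, at 55058, 48212 and 48014 in Lym and 57600, 118583 and 61987 in Lin-. Prtn3 and Ly6c2 were also lower in each Lym library than in any Lin- library. Elane, Ctsg, Csf1r and Itgam overlapped between groups, with the highest Csf1r and Itgam values in Lym, and S100a8 and S100a9 reached at most 7.92 and 22.1. Kit, the progenitor receptor by which Lin- cells were labelled, had 18902, 12027 and 3158 normalized counts for Lym and 4953, 6066 and 3420.2 for Lin-. In bulk RNA of this kind, fewer cells of a type and less RNA per cell cannot be told apart.

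The 300 bases around the start of Epb41l4b (chr4:57143107-57143406, minus strand, GRCm38.p6, from RefSeq) and of Msn (chrX:96095795-96096094, plus strand) are shown because these genes stand for the 2 patterns found, a gene far higher in Lym and a gene abundant in all 6 libraries. Each runs 5′ to 3′ from 250 bases before the RefSeq start to 50 after it, and capitals mark CG dinucleotides. For Epb41l4b the RefSeq start differs from that of the deposited table, whose gene span begins farther upstream and holds the whole window.
Epb41l4b: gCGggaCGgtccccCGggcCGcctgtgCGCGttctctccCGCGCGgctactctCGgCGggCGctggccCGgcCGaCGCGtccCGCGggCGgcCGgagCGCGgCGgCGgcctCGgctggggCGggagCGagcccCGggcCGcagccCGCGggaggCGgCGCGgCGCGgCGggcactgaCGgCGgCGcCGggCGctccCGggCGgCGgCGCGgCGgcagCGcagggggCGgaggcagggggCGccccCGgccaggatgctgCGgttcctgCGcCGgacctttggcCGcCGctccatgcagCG
Msn: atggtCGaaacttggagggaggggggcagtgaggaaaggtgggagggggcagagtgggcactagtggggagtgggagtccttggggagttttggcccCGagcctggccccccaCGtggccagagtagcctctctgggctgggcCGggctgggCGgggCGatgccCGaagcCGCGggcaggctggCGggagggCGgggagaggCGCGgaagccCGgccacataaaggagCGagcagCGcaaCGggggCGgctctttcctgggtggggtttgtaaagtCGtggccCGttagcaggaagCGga
The Epb41l4b window is 85.0% G and C with 58 CG dinucleotides, a number that 0.11% of the 32851 promoter windows of the same length reach. The Msn window is 69.0% G and C with 21 CG dinucleotides, which 24.8% of windows reach. On either strand, the GC box GGGCGG occurs 4 times in the Epb41l4b window and 3 times in the Msn window, and 35.7% of all windows hold it. Neither TGACAG, the core letters bound by Meis proteins, nor TGTGGT, those bound by Runx factors, occurs in either window. TGACAG is held by 19.2% of all windows and TGTGGT by 16.8%. The E-box CANNTG, present in 72.3% of windows, occurs 0 times in the Epb41l4b window and 1 time in the Msn window. These are matches of letters and nothing was measured about binding. RefSeq windows were matched for 8 of the 10 genes.

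Epb41l4b, also known as EHM2 and studied mainly in epithelial and tumour cells, was high in every Lym library and low but present in every Lin- library. It spans chromosome 4, 56991972 to 57143437, on the minus strand of GRCm38, and its exons cover 8858 bases with no exon of another gene on them. Its normalized counts were 423, 363 and 434 across the Lym mice (62, 63 and 87), beside 48.5, 81.0 and 89.7 across the Lin- mice (56, 57 and 91). The lowest Lym value was over the highest Lin- value by a wide margin, and the 3 Lym values lay close together. These values rest on 377, 324 and 455 reads in Lym and on 55, 92 and 87 reads in Lin-, so that no library was near the floor. The ratio of the group means was 5.56, and the difference of log2(normalized count + 2) was 2.48 on a scale where 1 is a doubling. The authors' deposited table gives a log2 fold change of -1.96, with the sign of Lin- over Lym. Among the Lym libraries mouse 87 had the highest value and mouse 63 the lowest. These values chose the gene and are a description.

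Markers of other cell types were set beside Epb41l4b. The epithelial markers summed to 16.8 to 214 in Lym and to 0 to 13.2 in Lin-. Most of each sum above 0 came from the adhesion gene Cdh1, at 214, 11.2 and 45.7 across Lym libraries, with 13.2, 0 and 6.19 across Lin- libraries. The other 3 epithelial markers were at or near 0, with Epcam listed at 0 in all 6 libraries, Krt8 at most 2.24 and Krt18 at most 3.36. The 7 endothelial and stromal markers summed to 15.7 to 34.7 in Lym and to 2.06 to 10.6 in Lin-. Both sums, like Epb41l4b, were higher in each Lym library than in any Lin- library, while Cdh1 alone overlapped between groups. The endothelial and stromal markers were low, each at most 15.7 in any library. Only Col1a2 among them did not overlap, at 15.7, 4.48 and 6.67 in Lym and 0 in each Lin- library. Cxcl12 was at 0, 10.1 and 0 in Lym and 8.82, 3.52 and 1.03 in Lin-. The part of epithelial, endothelial or stromal cells in the level of Epb41l4b was not tested.

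**Figure D1:**
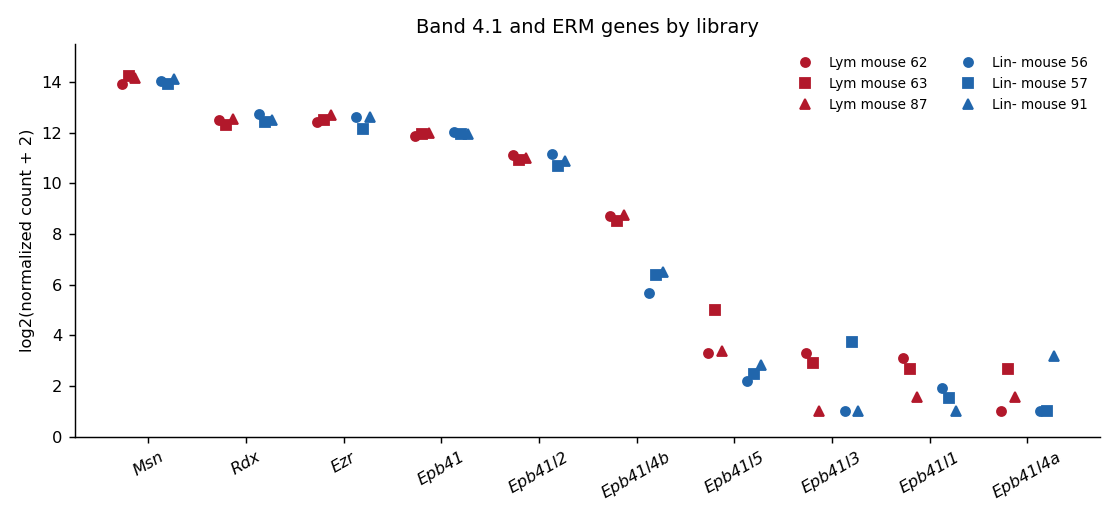
Normalized counts of the 10 genes in each library on a scale of log2(normalized count + 2), ordered by their mean, with Lym libraries in red left of Lin- libraries in blue and 1 symbol per mouse. Epb41l4b has its 3 Lym values at 363 to 434 and its 3 Lin- values at 48.5 to 89.7, while the 5 genes left of it overlap between groups.

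Of the 9 relatives, 5 passed the filter, which asked for 10 or more normalized counts in 3 or more libraries, and none of the 5 passed an adjusted p of 0.05 in limma. That fit called 0 of 14273 genes (0%), with 1459 genes at an unadjusted p under 0.05, and edgeR also called 0, with 1444 such genes. DESeq2 called 226 of 31604 genes (0.715%), and none of the 9 relatives was among them, with Epb41l1, Epb41l3 and Epb41l4a given no adjusted p. The groups overlapped in all 5, where the groups did not overlap in 15.6% of all tested genes (8.49% with Lym higher and 7.08% with Lym lower). Without the Lym library of mouse 87 limma called 1366 genes, or 9.57% of those tested, and still none of the 5, whose adjusted p-values then ran from 0.463 to 0.973. With library weights, which count uneven libraries less, limma called 4.62% of tested genes and none of the 5.

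Moesin was the most abundant of the family in every library. Msn (chromosome X, 96096042 to 96168552) stood at 15300.5, 19541 and 18271 normalized counts across the Lym mice (62, 63 and 87), beside 16962, 15354 and 17949 across the Lin- mice (56, 57 and 91). The groups overlapped, with the lowest and the highest value both in Lym. Its log2 difference, Lym minus Lin-, was 0.07 ± 0.13 (SE, limma adjusted p = 0.854), with a 95% interval of -0.22 to 0.37, or a ratio of 0.858 to 1.29. A doubling lies outside this interval.

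For ezrin and radixin too the groups overlapped. Ezr (chromosome 17, 6738041 to 6782784) was at 5448, 5859 and 6654 for Lym, beside 6205, 4540.2 and 6261 for Lin-. Lin- mouse 57 had the lowest value, and the log2 difference was 0.09 ± 0.15 (limma adjusted p = 0.853, 95% interval -0.26 to 0.44). Rdx (chromosome 9, 52047173 to 52100463) was at 5753, 5073 and 6010.4 across Lym libraries, with 6875, 5502 and 5846 across Lin- libraries. Its log2 difference was -0.11 ± 0.13 (limma adjusted p = 0.767, 95% interval -0.40 to 0.18). Exons of Ezr share 4 bases with Sytl3, those of Msn 136 with Gm24718 and those of Epb41 142 with Gm10300 and 91 with Gm13063, all on the other strand, and none of these 4 genes was above 13.4 normalized counts.

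The make-up of the ERM group was compared per kilobase of exon, the scale on which levels of different genes can be set side by side. Moesin made up 48.1 ± 3.4% of the ERM signal in Lym and 46.9 ± 2.2% in Lin- (SD, n = 3 each). Ezrin made up 31.3 ± 1.4% in Lym and 30.3 ± 2.2% in Lin-, and radixin 20.5 ± 2.5% in Lym and 22.7 ± 1.8% in Lin-. The order moesin, ezrin, radixin held in all 6 libraries. The moesin share differed by 1.19 percentage points, Lym minus Lin-, with p = 0.7 in a two-sided exact permutation test, where 3 mice against 3 cannot go below 0.1, and the difference was -0.73 points without Lym mouse 63 and -0.014 points without Lin- mouse 56. The radixin share differed by -2.21 percentage points (exact permutation p = 0.2). The sum of the 3 genes was 5804 ± 461 per kilobase in Lym and 5655 ± 594 in Lin- (exact permutation p = 0.7). Over the 4 values tested in this way, ezrin included, the Benjamini-Hochberg adjusted p was 0.7 for each.

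**Figure D2:**
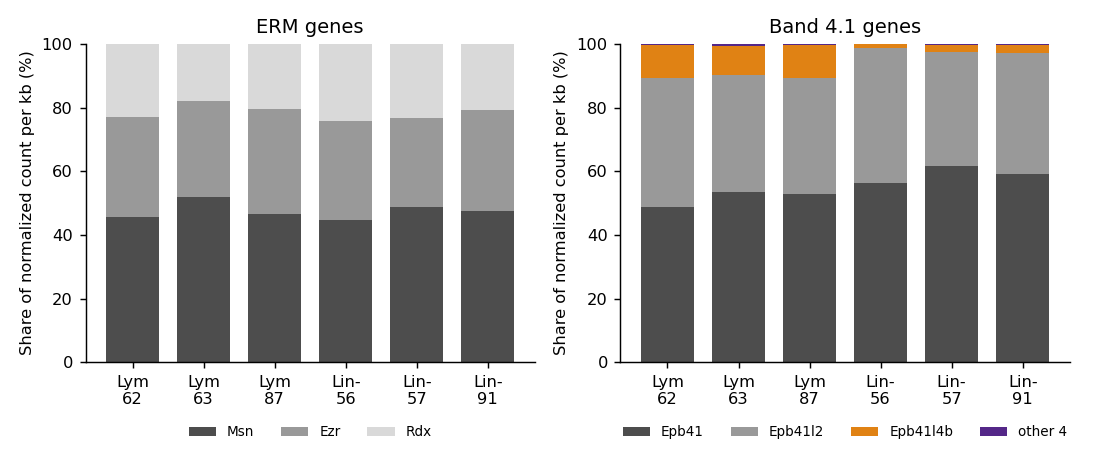
Share of the normalized count per kilobase of exon held by each gene among the 3 ERM genes (left) and the 7 band 4.1 genes (right), 1 bar per library, Lym before Lin-. Moesin holds 44.5% to 52.0% of the ERM signal in every library, while Epb41l4b takes 9.09% to 10.4% of the band 4.1 signal in Lym and 1.21% to 2.46% in Lin-.

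Epb41, which encodes the founding protein of the red cell membrane skeleton, varied less between the 6 libraries than nearly any other gene. Epb41 (chromosome 4, 131923413 to 132075321) was at 3714, 3939.9 and 4055 across the Lym mice (62, 63 and 87), beside 4182, 3917 and 3981 across the Lin- mice (56, 57 and 91). The standard deviation of its log2 values over all 6 libraries was 0.057, and 0.364% of tested genes had a smaller one. Among the 1987 tested genes within 2-fold of its mean level, 1.46% had a smaller one. The log2 difference was -0.05 ± 0.10 (limma adjusted p = 0.888, 95% interval -0.28 to 0.19). Of 9 erythroid markers, 6 were listed at 0 in all 6 libraries, among them Hba-a1, Hba-a2, Hbb-bs, Hbb-bt and Epor. All 9 together summed to 4.76 to 12.3 in Lym and to 0.882 to 17.6 in Lin-. Hba-a1 and Hba-a2 are near-identical copies, as are Hbb-bs and Hbb-bt, and how reads shared by copies were counted is not given in the sources used here.

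Epb41l2, the widely expressed relative known as 4.1G, was below Epb41 in every library, also per kilobase of exon. Epb41l2 (chromosome 10, 25359798 to 25523519) was at 2217, 1960.5 and 2029.5 for Lym, beside 2276, 1647 and 1865 for Lin-. The 3 Lym values lay inside the Lin- range, and the log2 difference was 0.11 ± 0.14 (limma adjusted p = 0.797, 95% interval -0.22 to 0.44). By standard deviation of log2 values, 19.0% of tested genes were less variable than Epb41l2, against 12.1% for Msn, 12.8% for Rdx, 25.3% for Ezr and 96.2% for Epb41l4b.

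**Figure D3:**
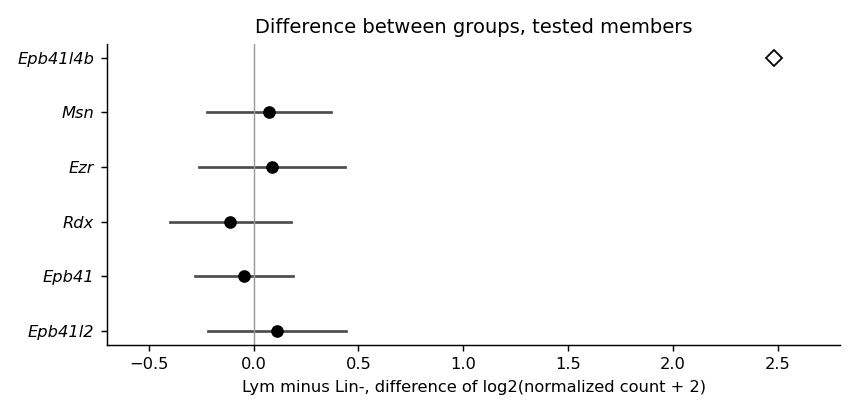
Difference of log2(normalized count + 2), Lym minus Lin-, for the 6 genes that passed the filter, with 95% intervals from limma for the 5 relatives. The open diamond is Epb41l4b at 2.48, drawn without an interval because it was chosen for this difference, and the 5 relatives lie between -0.11 and 0.11.

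The remaining 4 relatives were near or below the floor in most libraries and were below the filter. Epb41l5, which shapes epithelia and cell movement in the mouse embryo (chromosome 1, 119545037 to 119649000), was at 7.85, 30.2 and 8.58 across the Lym mice (62, 63 and 87), beside 2.65, 3.52 and 5.16 across the Lin- mice (56, 57 and 91). The groups did not overlap, but these values stand for 7, 27 and 9 reads in Lym and 3, 4 and 5 reads in Lin-, with most Lym reads in mouse 63. Fitted without a filter, its log2 difference was 1.40 ± 0.80 (limma adjusted p = 0.717), and in DESeq2 it was 2.05 ± 1.10 (adjusted p = 0.537). Without a filter limma called 5 of 31604 genes, or 0.0158%.

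Epb41l1, known as 4.1N of neurons (chromosome 2, 156420909 to 156543214), had 11 reads over the 3 Lym libraries and 3 over the 3 Lin- libraries, at most 6 in one. Epb41l3, known as the tumour suppressor DAL-1 (chromosome 17, 69075683 to 69289989), had 12 reads in Lym and 13 in Lin-, and all 13 were in mouse 57. Epb41l4a, the closest relative of Epb41l4b by name (chromosome 18, 33796327 to 34006966), had 5 reads in Lym and 7 in Lin-, those 7 all in mouse 91. Differences in these 3 genes were not detectable at this depth, with limma adjusted p-values without a filter of 0.725 for Epb41l1, 0.788 for Epb41l3 and 0.991 for Epb41l4a. In the authors' deposited table, which calls 101 of 31604 genes at an adjusted p of 0.05 (0.32%), the adjusted p of the 9 relatives ran from 0.964 to 0.984.

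Set side by side per kilobase of exon, the ERM genes came first, Epb41 and Epb41l2 next and Epb41l4b after them. Msn, Ezr and Rdx averaged 2798 ± 344, 1820 ± 186 and 1186 ± 102 normalized counts per kilobase in Lym, and 2648 ± 207, 1723 ± 297 and 1284 ± 151 in Lin- (SD, n = 3 each). Epb41 and Epb41l2 averaged 238 ± 10.6 and 175 ± 11.2 in Lym, and 246 ± 8.4 and 163 ± 27.0 in Lin-. Epb41l4b averaged 45.9 ± 4.3 in Lym and 8.25 ± 2.45 in Lin-, and the other 4 were at 1.05 or less in either group and could not be ordered. Per kilobase, Epb41 stood 4.75 to 5.87 times above Epb41l4b in the Lym libraries and 24.0 to 46.6 times above it in the Lin- libraries. Epb41l4b thus held 9.95 ± 0.74% of the summed band 4.1 signal in Lym and 2.01 ± 0.69% in Lin-. Exon lengths are those of the deposited table, which add up all annotated exons of a gene, so the level of a gene that uses few of them is understated.

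The 5 genes whose pattern over the 6 libraries was nearest to that of Epb41l4b were Arhgap6, Lrrc4c, Efna4, Ldlrad4 and Trim55. Nearness was the root mean square difference of log2(normalized count + 2) values over the 6 libraries, each gene centred on its own mean, among tested genes with a gene symbol. Arhgap6, a GTPase-activating protein that acts on the actin cytoskeleton, was nearest at 0.176. It stood at 40.4, 49.2 and 51.5 across the Lym mice (62, 63 and 87), beside 4.41, 8.80 and 11.3 across the Lin- mice (56, 57 and 91), in the same order of libraries within Lin- as Epb41l4b. Lrrc4c, a neuronal adhesion ligand (0.289), was at 32.5, 31.3 and 22.9 in Lym against 1.76, 7.04 and 6.19 in Lin-. Efna4, an ephrin (0.361), was at 21.3, 13.4 and 20.01 in Lym against 0.882, 5.28 and 5.16 in Lin-. The Lin- values of both were at most 7.04, so both passed the filter through their Lym libraries alone. Ldlrad4, an inhibitor of TGF-beta signalling (0.383), was at 336, 241 and 216 in Lym against 44.1, 71.3 and 105 in Lin-. Trim55, a muscle RING finger protein (0.383), was at 22.4, 10.1 and 11.4 in Lym against 0, 0 and 1.03 in Lin-. Of these 5, Ldlrad4 was the one with a level like that of Epb41l4b, and the other 4 reached at most 11.3 in any Lin- library. Trim55 too passed the filter through Lym alone. Lists of nearest genes rank patterns seen in 6 libraries and carry no test. All 5 were picked for nearness to a gene chosen as high in Lym, so their higher Lym values are a description. Among the tested relatives the distance to Epb41l4b was 1.25 to 1.35, and 34.1% to 57.4% of tested genes were nearer.

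**Figure D4:**
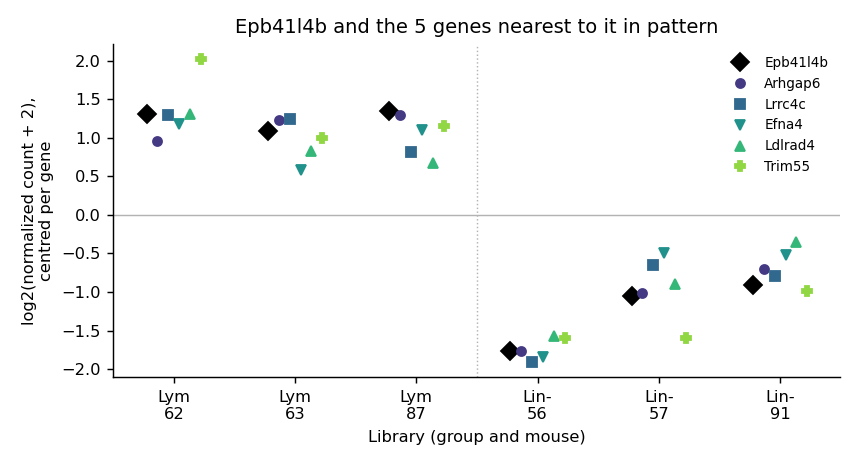
Values of Epb41l4b (black diamonds) and the 5 genes nearest to it in pattern, as log2(normalized count + 2) centred on each gene's mean over the 6 libraries, Lym left of Lin-. All 6 genes lie above their mean in the 3 Lym libraries and below it in the 3 Lin- libraries, with Lin- mouse 56 lowest or tied for lowest in each. The 5 genes were picked for this likeness, and Lrrc4c, Efna4 and Trim55 passed the filter through Lym alone.

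The genes beside Epb41l4b on chromosome 4 had log2 differences of at most 0.48 where they could be tested. The window, chosen after the values were seen, took the 11 protein-coding genes within 500 kb of it, of which 4 passed the filter. Tmem245, the nearest of these, was at 1979 in Lym mouse 62, 1761 in mouse 63 and 1365 in mouse 87, against 1143 in Lin- mouse 56, 1222 in mouse 57 and 1254 in mouse 91. The groups did not overlap, and the log2 difference was 0.48 ± 0.16 (limma adjusted p = 0.441). Fam206a and Ctnnal1 had log2 differences of -0.07 ± 0.15 and 0.22 ± 0.23 (limma adjusted p = 0.888 and 0.744). Both direct neighbours were nearly silent, with Frrs1l at most 6.71 and Ptpn3, itself a FERM-domain phosphatase, at most 0.953.

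Partners of the 2 families were taken from 5 lists, and no member of any list passed an adjusted p of 0.05 in limma over all genes tested. Of 22 genes of the spectrin and actin membrane skeleton, 9 were tested, 7 with a higher and 2 with a lower value in Lym, and the median log2 difference was 0.20, against -0.01 over all genes tested. Groups did not overlap in 6 of the 9, against 15.6% of all tested genes, and 1 of the 6 is Ank3, which passed the filter through its Lym libraries alone. Beta II spectrin (Sptbn1) was at 27231, 27665 and 26077 across the Lym mice (62, 63 and 87), beside 21447, 19703 and 20955 across the Lin- mice (56, 57 and 91). All Lym values lay above all Lin- values, with a log2 difference of 0.38 ± 0.10 (limma adjusted p = 0.420, and 0.0471 without the Lym library of mouse 87). Alpha II spectrin (Sptan1), its partner in the tetramer, was at 11539 ± 962 in Lym and 10097 ± 681 in Lin- (SD, n = 3 each; limma adjusted p = 0.567). The ankyrin gene Ank3 was at 11.2, 48.1 and 14.3 in Lym and 0.882, 0 and 0 in Lin-, and is given with no test because of how it passed the filter. Sptb, Ank1, Slc4a1 and Epb42, of the red cell membrane, reached at most 5.61 in any library.

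Of 12 kinases and other regulators of ERM proteins, 11 were tested, 8 higher and 3 lower in Lym by value, with a median of 0.17. The list also holds the phosphatase subunit genes Ppp1r12a and Ppp1cb, so it is not one of activators alone. Their log2 differences were 0.30 ± 0.11 and -0.29 ± 0.12, and in neither did the groups overlap. Rock1, a kinase that promotes actin and myosin contraction, was at 9215, 7725 and 6561 across Lym libraries, with 6318, 6175 and 5699 across Lin- libraries, with a log2 difference of 0.36 ± 0.14 (limma adjusted p = 0.461, and 0.0359 without Lym mouse 87). Slk, a kinase that phosphorylates ERM proteins, was at 7033 ± 427 in Lym and 6766 ± 385 in Lin- (SD, n = 3 each; limma adjusted p = 0.868). Pip5k1a, which makes the phospholipid that opens ERM proteins, was at 828, 780 and 471 for Lym, beside 473, 509 and 416 for Lin- (limma adjusted p = 0.487, and 0.0209 without Lym mouse 87, after which it was named). Groups did not overlap in 6 of the 11, 4 higher and 2 lower in Lym, against 8.49% of all tested genes with Lym higher and 7.08% with Lym lower.

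Of 11 membrane and scaffold partners of ERM proteins, 9 were tested, with a median log2 difference of 0.12 and overlapping groups in each. The sialomucin gene Spn (CD43) was at 15524, 13493 and 10553 across Lym libraries, with 10871, 10981 and 11130.1 across Lin- libraries (limma adjusted p = 0.575). In Spn mouse 87 lay below all Lin- libraries, and mouse 62 was highest. Podxl and Pdpn, ERM-binding proteins of epithelia and vessels, were listed at 0 throughout.

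Of 10 partners in cell polarity, 5 were tested, with a median of 0.07 and overlapping groups in each. Arhgef18, a guanine nucleotide exchange factor that works with Epb41l4b and Epb41l5 in epithelia, was at 8247, 10058.5 and 6607 across Lym libraries, with 5458, 7528 and 6459 across Lin- libraries (log2 difference 0.35 ± 0.18, limma adjusted p = 0.525). Iqsec1, an Arf exchange factor, was at 1553 ± 286 in Lym and 1630.0 ± 103 in Lin- (SD, n = 3 each; limma adjusted p = 0.866). The Crumbs genes Crb1, Crb2 and Crb3, to which these polarity proteins bind in epithelia, reached at most 6.71. Patj, of the same complex, was below the filter at 94.2, 20.1 and 9.53 in Lym and 4.41, 3.52 and 2.06 in Lin-. Patj was named after its values were seen, because it was among the genes that DESeq2 called, 0.715% of all. Its Lin- values were near the floor and mouse 62 held most of its Lym signal, so its values are a description with no test.

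Of 37 other FERM proteins, 24 were tested, 16 higher and 8 lower in Lym by value, with a median of 0.11 and groups that did not overlap in 6. Talin 1 (Tln1), which activates integrins, was at 38097, 41665 and 37432 for Lym, beside 29380, 29912 and 29920.5 for Lin-, with a log2 difference of 0.39 ± 0.11 (limma adjusted p = 0.420, and 0.0488 without Lym mouse 87). Its relative Tln2 was at 25.8, 25.7 and 43.8 across Lym libraries, with 56.5, 61.6 and 145 across Lin- libraries, a log2 difference of -1.32 ± 0.47 (limma adjusted p = 0.451). Kindlin 3 (Fermt3), the integrin activator of blood cells, was at 7150.2 ± 481 in Lym and 6761 ± 477 in Lin- (SD, n = 3 each; limma adjusted p = 0.807). Without Lym mouse 87, limma called 5 of the 24, where it called 9.57% of all tested genes. They were Tln1, Frmd8, Mylip and the kinase Jak2 as higher and Plekhh2 as lower in Lym, all but Tln1 named after this result was seen. Plekhh2 was at 37.0, 147 and 909.9 in Lym and 616, 593 and 729 in Lin-, so that mouse 87 lay above every Lin- library. Its log2 difference was -1.89 with all libraries (limma adjusted p = 0.516) and -3.08 without mouse 87 (limma adjusted p = 0.00688). In 15.6% of all tested genes the groups did not overlap (8.49% with Lym higher and 7.08% with Lym lower). In the membrane skeleton they did not overlap in 6 of 9, 5 higher and 1 lower in Lym. Ank3, which passed the filter through Lym alone, is among the 5 higher. ERM regulators had 6 of 11 and other FERM proteins 6 of 24, each with 4 higher and 2 lower in Lym. ERM membrane and scaffold partners had 0 of 9 and polarity partners 0 of 5, and no test was made of the lists.

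**Figure D5:**
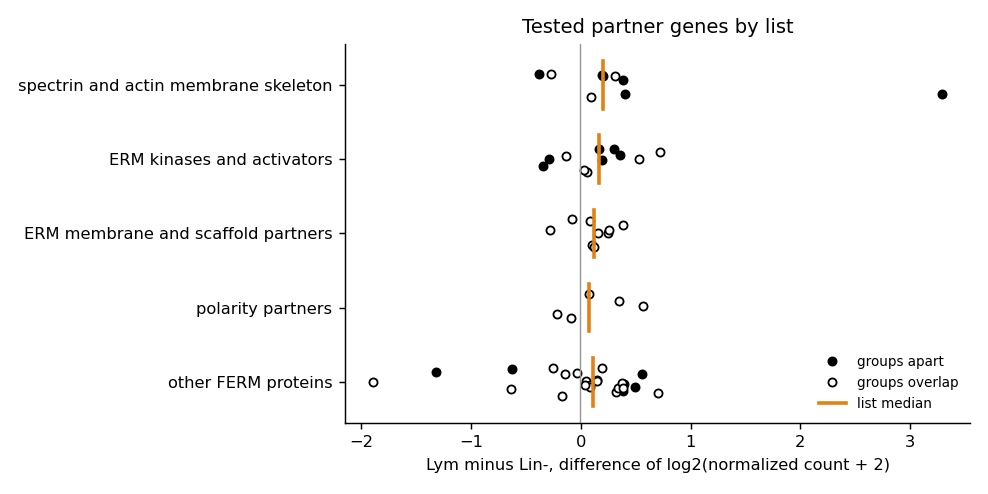
Difference of log2(normalized count + 2), Lym minus Lin-, for each tested gene of the 5 partner lists, with filled points where the groups did not overlap. Orange bars are list medians (0.07 to 0.20) and the grey line is the median of all tested genes (-0.01).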

How the data were processed

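Total RNA of 6 mice was extracted with a column kit, and stranded libraries for very small inputs took 2 ng each, except 1 ng for mouse 62 of the Lym group, then 12 cycles of PCR, and were read over 38 bases, per the labels' protocols. The submitters' processing notes name bcl2fastq, DESeq2, featureCounts 1.6.4, STAR 2.6.1d, Trim Galore 0.6.4 and the build GRCm38.p6, and neither the annotation release nor the use of strand in counting is given in the sources used here. The authors deposited a normalized signal per gene, each library's counts over its size factor. All values up to 10000 were whole multiples of 1 read (tolerance 0.01), so reads were recovered for edgeR and DESeq2. Per the file headers, other columns of the deposited table give a log2 fold change with its error, a Wald score, a p-value with its adjusted form, and each gene's length.

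Differences, Lym minus Lin-, came from limma 3.58.1 (R 4.3.3, trend option) on log2(normalized count + 2) over the 14273 genes that had 10 or more normalized counts in 3 or more libraries, adjusted by Benjamini-Hochberg. The normalized counts are not raw, so edgeR 4.0.16 and DESeq2 1.42.0 were run as alternatives on recovered reads, beside other scaling, pseudocounts, filters and library weights and leaving out each mouse. Named genes were the 10 genes, the 2 most abundant tested members of each partner list and its gene with the largest difference among those whose groups did not overlap, the 5 nearest patterns (receptor segments and Gm or Rik names left out), and genes said to be chosen later. Some genes of these lists are not reported here. The genes and lists were chosen with earlier results of these data known, and the promoter motifs and the window of neighbours after the values were seen. Python 3.11.15 and scipy 1.17.1 were used, and the fits were tested on simulated data.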

Additional observations from a re-analysis of the deposited data

How the results depend on the processing

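None of the relatives of Epb41l4b passed an adjusted p of 0.05 under any alternative run. The log2 difference of Epb41l4b was 2.44 to 2.56 with a Lym mouse left out and 2.22 to 2.65 with a Lin- mouse left out. The gene was chosen by these values, so this is a description. The number of genes past the threshold was 0 and moved to 226 with DESeq2, 660 with library weights, 5 with no filter, 1 with a pseudocount of 8 and 0 to 1366 when a mouse was left out, the highest without Lym mouse 87. Library weights ran from 0.361 for that mouse to 2.19 for Lym mouse 63. Signs turned in relatives that were near 0: Ezr was -0.063 without Lin- mouse 57 (up to 0.17 with a mouse left out), Msn -8.2e-06 without Lym mouse 63 (up to 0.18), and Epb41l4a -0.40 in DESeq2. The moesin share, +1.19 points, was -0.73 without Lym mouse 63 and -0.014 without Lin- mouse 56, and 2.41 at most (without Lym mouse 62). The cause was not tested.

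Among the partner lists, the median of the membrane skeleton was 0.38 with no filter, 0.15 with library weights and 0.20 to 0.24 with a mouse left out. It had 1 call in DESeq2, 2 with weights and 0 to 2 with a mouse left out, where those fits called 0.715%, 4.62% and up to 9.57% of all genes. In each of these fits with a call, 1 was Ank3, which passed the filter through Lym alone. ERM regulators had a median of 0.050 to 0.19 with a mouse left out, with 1 call under weights and 0 to 2 with a mouse left out. Polarity partners had a median of 0.35 with no filter, -0.043 with weights and -0.066 to 0.21 with a mouse left out. Other FERM proteins had a median of 0.33 with no filter, 3 calls with weights and 0 to 5 with a mouse left out. With no filter the median over all 31604 genes was itself 0.15, against -0.01 with the filter. Genes with a read numbered 24027 and 23836 in Lym mice 63 and 87, 19427 in Lym mouse 62 and 19473 to 20358 in Lin-. The calls with a mouse left out were without Lym mouse 87. No paired analysis was possible because the labels give the groups no shared replicate numbers. At this depth, differences in the 4 relatives below the filter could not be measured.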
